A study of Arabidopsis thaliana and Zea mays with 12 samples.

Results

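Expansins, xyloglucan endotransglucosylase/hydrolases (XTH) and fasciclin-like arabinogalactan proteins (FLA) were compared between 2 Arabidopsis thaliana phenotypes, Ag and Br. The labels name the phenotypes by these codes alone, so genotype, strain and any treatment stay unstated. Both groups were leaf tissue of plants 2 weeks old, harvested near mid-photoperiod, with 3 arrays per group that the labels call biological replicates. Each array carried biotin-labelled cRNA made from RNA pooled over several plants, so the error terms describe the spread between pools. Members were the genes whose symbol starts with EXPA, EXPB, EXLA, EXLB, XTH or FLA and a number, read by a probe set annotated to that gene alone. This gave 27 of the 13356 genes with a probe set of their own, each read by 1 of the 22746 probe sets tested. They were 10 EXPA, 4 EXPB, 3 EXLA, 1 EXLB and 9 XTH genes. By symbol, the TAIR10.1 gene table lists 24 EXPA, 6 EXPB, 3 EXLA, 1 EXLB and 30 XTH genes. The EXPA, EXPB and XTH families were therefore read in part, and statements on them cover the measured genes alone. The same table lists 19 genes with a FLA symbol, but 0 of them met the rule with the annotation used here. The fasciclin family is therefore not analysed here.

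Plant cells enlarge when the wall yields to turgor. Expansins loosen the contacts between cellulose and the matrix without cutting polymers. The EXPA (alpha) and EXPB (beta) families have this activity, while the expansin-like EXLA and EXLB proteins share the fold and have no established loosening activity. XTH enzymes cut the hemicellulose xyloglucan and join the cut end to another chain or, in some members, to water. Members of these families are transcribed in different organs, several of them in roots or root hairs, so a leaf sample need not hold them all.

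The measurements are deposited array intensities, in arbitrary linear units, and the number of arrays limits their precision. Probe sets of different genes are not on 1 scale, so intensities are compared between arrays and not between genes. Of the 27 genes, 11 had a mean intensity above the median of all probe sets, which was 36.9, and 16 did not. EXPA9, at a mean of 36.85, lay just below that line, and EXPB1, at 47.1, was the nearest above it. In bulk tissue, fewer cells of a type and less RNA per cell cannot be told apart. Quality measures moved with the groups. The ratio of the 3′ to the 5′ signal of control transcripts was higher on every Ag array than on every Br array for 4 of 6 control pairs, covering ubiquitin, actin and GAPDH (two-sided exact permutation p = 0.10 for each of the 4, the smallest that 3 against 3 allow). For the first ubiquitin pair the ratio was 4.50 ± 0.99 in Ag and 2.54 ± 0.36 in Br (SD, n = 3). The part of RNA quality in the results was not tested.

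A few expansin and XTH transcripts were higher in Br. In the limma fit, with p adjusted (Benjamini-Hochberg) across the whole array, 4 of the 27 genes were higher in Br at an adjusted p under 0.05: EXLA1, EXPB1, XTH16 and XTH33. The same test called 2.08% of all probe sets, 0.963% higher in Br and 1.12% lower. No member was called lower, and 0 members were lower at an unadjusted p under 0.05, where 6 were higher. Those 6 were the 4 called genes, EXPA4 and EXLA3. Among all probe sets, 8.23% were higher and 7.87% lower at that level. On the deposited scale, every Br array exceeded every Ag array for 8 members (12.1% of all probe sets), and the reverse held for 1, XTH20 (8.67% of all probe sets). The log2 change was positive for 18 members and negative for 9, where 49.6% of all probe sets had a positive one. Its median over the 27 was 0.19, against -0.0018 over all probe sets, and over the 23 genes not called it was 0.056. EXPB1, XTH16 and XTH33 had Ag means of 17.7, 32.2 and 20.7, below the median of 36.9, and counted among the 11 brighter members through their Br arrays. The calls were sensitive to the number added before taking logs: with 1 in place of 16, 0 of the 27 genes were called by limma (7 at an unadjusted p under 0.05), with adjusted p from 0.085 to 0.194 for these 4, and with 64, XTH33 alone was called (adjusted p = 0.0472).

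**Figure D1:**
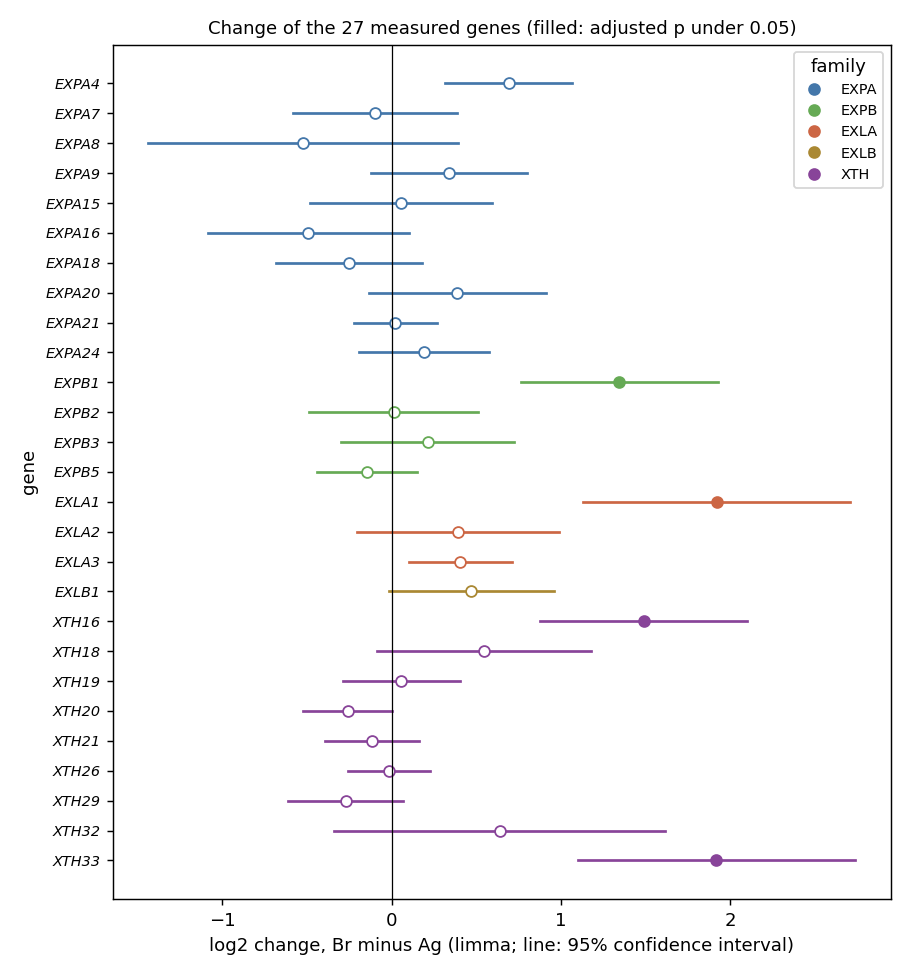
Log2 change, Br minus Ag, of each measured gene (x axis, on the log2(intensity + 16) scale) by gene (y axis), coloured by family; points are limma estimates, filled where the adjusted p is under 0.05, and lines are 95% confidence intervals. EXLA1, EXPB1, XTH16 and XTH33 lie between 1.35 and 1.92, and the 23 other genes between -0.52 and 0.69.

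The expansin-like EXLA family had positive log2 changes in all 3 genes, with 1 call. EXLA1 (AT3G45970) read 82.2, 36.9 and 28.6 on the Ag arrays and 186, 180 and 327 on the Br arrays. The groups were well apart, although the first Ag array stood above the rest of its group and the third Br array above the rest of its own. The log2 change was 1.92 ± 0.33 (SE, 95% interval 1.13 to 2.71, limma adjusted p = 0.0399). The call was lost when 1 of 4 arrays was dropped: Ag replicate 2 (adjusted p = 0.152) or 3 (0.130), or Br replicate 2 (0.120) or 3 (0.133), with the log2 change between 1.67 and 2.25 whichever single array was left out.

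EXLA3 (AT3G45960), the next coding gene along the chromosome from EXLA1 in the TAIR10.1 gene table, was dim. It read 10.2, 10.3 and 9.15 in Ag and 23.7, 14.7 and 22.0 in Br, without overlap. Its log2 change of 0.41 (95% interval 0.10 to 0.71) missed the threshold (limma adjusted p = 0.184). EXLA2 (AT4G38400), which has been linked to the response to necrotrophic fungi, read 47.8, 27.9 and 73.4 in Ag and 70.4, 55.8 and 86.2 in Br. The groups overlapped, through the third Ag array, and the log2 change was 0.39 (95% interval -0.20 to 0.99, adjusted p = 0.513). EXLB1 (AT4G17030), the 1 measured gene of the other expansin-like family, read 26.5, 18.4 and 17.0 in Ag and 55.3, 23.9 and 36.6 in Br. Its second Br array fell below the first Ag array, and its log2 change of 0.47 (95% interval -0.013 to 0.96) did not pass (adjusted p = 0.322).

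Among the 4 measured beta-expansins, 3 had a positive log2 change, and EXPB1 (AT2G20750) was the 1 gene called. It read 18.3, 13.2 and 21.5 in Ag and 47.1, 106 and 76.3 in Br. No Br array reached down to the Ag range, and the first Br array was the lowest of the 3. The log2 change was 1.35 ± 0.25 (SE, 95% interval 0.77 to 1.93, limma adjusted p = 0.0455). Because 16 was added to every intensity, this scale understates a change from a low intensity such as that of EXPB1 in Ag. With 1 added in its place the log2 change was 1.90 (limma adjusted p = 0.085). The ratio of the mean intensities was 4.33, against a fitted fold of 2.54, a gap that also holds the quantile normalization and the averaging of log values. The call remained without the first Br array (adjusted p = 0.0142), and it was lost without any other single array (adjusted p from 0.119 to 0.171).

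The other measured beta-expansins did not pass. EXPB3 (AT4G28250) read 60.6, 80.7 and 122 in Ag and 106, 110 and 95.6 in Br, so the Br arrays lay close together inside the wide Ag range (log2 change 0.21, 95% interval -0.30 to 0.73, limma adjusted p = 0.701). Without the first array of both groups its log2 change was -0.0048. EXPB5 (AT3G60570) read 16.1, 13.3 and 17.2 in Ag and 11.6, 11.5 and 18.5 in Br. The groups overlapped, and the log2 change was -0.15 (adjusted p = 0.644). EXPB2 was near the bottom of the scale on all arrays, between 3.21 and 14.7, with a log2 change of 0.012. The median of the 4 was 0.11, and without the first Ag array it was -0.032.

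**Figure D2:**
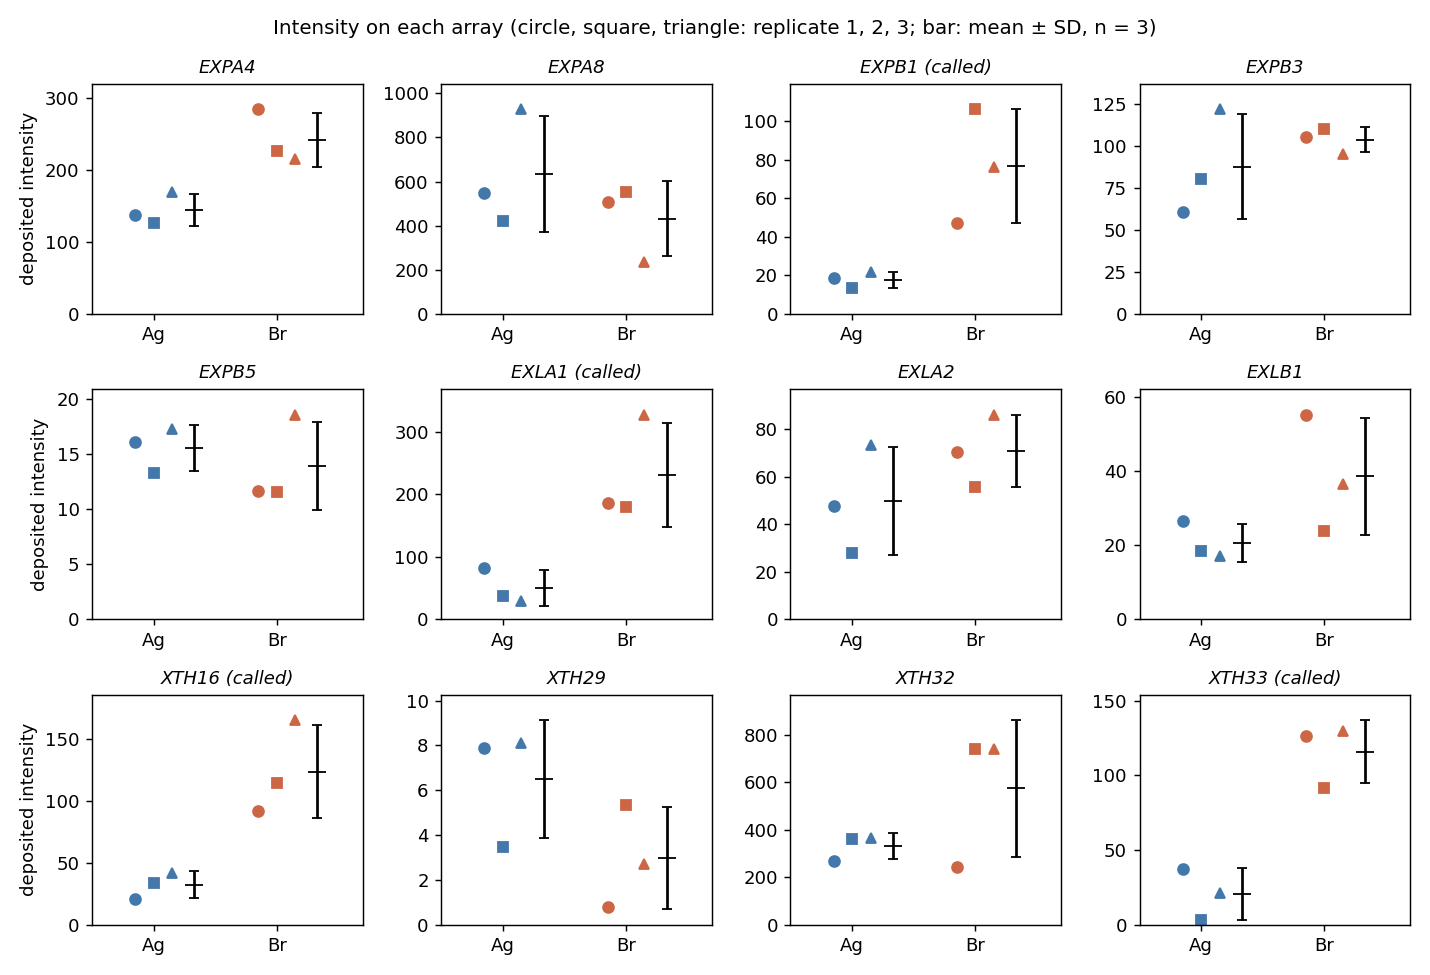
Deposited intensity (y axis, linear, from 0) of 12 genes on each Ag and Br array; circles, squares and triangles are replicates 1, 2 and 3, and the black mark with bars is the mean ± SD (n = 3). For EXLA1, EXPB1, XTH16, XTH33 and EXPA4 the highest Ag array lies below the lowest Br array, while for XTH32 the first Br array, at 242, lies below all 3 Ag arrays.

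The alpha-expansins, the family with the most measured genes, had no call by limma among those measured. Of 10 genes 6 had a positive and 4 a negative log2 change, with a median of 0.039, and 1 had an unadjusted p under 0.05. That gene, EXPA4 (AT2G39700), read 137, 126 and 169 in Ag and 284, 226 and 215 in Br. All Br arrays were above all Ag arrays, yet the log2 change of 0.69 (95% interval 0.31 to 1.07) missed the adjusted threshold (limma adjusted p = 0.0907). EXPA4 also missed under each of the 15 alternative settings, with adjusted p from 0.056 to 0.248.

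EXPA8 (AT2G40610) had the most negative log2 change of the family. It read 550, 423 and 929 in Ag and 508, 551 and 235 in Br. The third arrays of the groups lay at opposite ends, and the other 4 fell within 423 to 551. The log2 change was -0.52 with an interval from -1.44 to 0.39 (limma adjusted p = 0.577). EXPA16 (AT3G55500) read 89.8, 35.7 and 84.2 in Ag and 45.0, 45.0 and 44.2 in Br, so the second Ag array, not a Br array, was the lowest (log2 change -0.49, adjusted p = 0.401). EXPA15 had a log2 change of 0.056 (95% interval -0.48 to 0.60, adjusted p = 0.949).

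The other 6 measured alpha-expansins had means over the 6 arrays below the median of all probe sets. EXPA9 read 33.8, 33.3 and 20.7 in Ag and 59.7, 37.4 and 36.2 in Br, without overlap, and did not pass (log2 change 0.34, limma adjusted p = 0.457). EXPA7 and EXPA18, which act in root hair growth, read between 3.09 and 17.0 on all arrays, and their log2 changes of -0.097 and -0.25 missed the threshold (adjusted p = 0.880 and 0.567). EXPA21 and EXPA24, with 4 coding genes between them on chromosome 5, had means of 1.69 and 3.30 over the 6 arrays. EXPA20 read 2.32, 3.16 and 12.4 in Ag and 7.83, 15.8 and 17.0 in Br (log2 change 0.39, adjusted p = 0.458).

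The XTH family held the other 2 calls. XTH33 (AT1G10550), whose product has a predicted membrane anchor, read 37.5, 3.01 and 21.4 in Ag and 127, 91.7 and 130 in Br. The Ag arrays were scattered at the dim end and the Br arrays lay together. The log2 change was 1.92 ± 0.35 (SE, 95% interval 1.099 to 2.74, limma adjusted p = 0.0445). Without the first Ag array it still passed (adjusted p = 0.0428), and without any other single array it did not (adjusted p from 0.065 to 0.173), nor without the first array of both groups (0.0563). The second Ag array, at 3.01, set part of its size, since the log2 change was 1.51 without that array.

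XTH16 (AT3G23730) read 20.7, 34.0 and 42.0 in Ag and 91.5, 114 and 165 in Br. The lowest Br array was far above the highest Ag array. The log2 change was 1.49 ± 0.26 (SE, 95% interval 0.88 to 2.103, limma adjusted p = 0.0399). It passed without the first Br array (adjusted p = 0.0325) and missed without any other single array (adjusted p from 0.090 to 0.147).

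XTH32 (AT2G36870), of the small clade that includes xyloglucan hydrolases, changed its call with a single array. It read 268, 363 and 365 in Ag and 242, 739 and 742 in Br. The first Br array was the lowest of all 6, and the other Br arrays were above every Ag array. Over all arrays the log2 change was 0.64 (95% interval -0.34 to 1.62, limma adjusted p = 0.518). Without the first Br array it was 1.15 and passed (adjusted p = 0.0266), as it did without the first array of both groups (1.02, adjusted p = 0.0393).

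The remaining measured XTH genes were below the median intensity and none passed by limma (adjusted p from 0.311 to 0.969). XTH18 and XTH19, adjacent on chromosome 4, are both known from roots. XTH18 read 17.2, 17.3 and 8.63 in Ag and 20.9, 21.4 and 53.5 in Br, without overlap, and the third Br array was far above the rest (log2 change 0.55, adjusted p = 0.379). XTH19 stayed between 19.0 and 33.5 (log2 change 0.056, adjusted p = 0.908). XTH20, which with XTH19 acts in the rejoining of cut stems, read 11.8, 10.3 and 8.59 in Ag and 6.92, 5.60 and 7.89 in Br. It was the 1 member with all Br arrays below all Ag arrays (log2 change -0.26, adjusted p = 0.311).

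XTH29 had the most negative log2 change of the family. It read 7.90, 3.45 and 8.12 in Ag and 0.803, 5.34 and 2.73 in Br, at the dim end of the scale and with overlap (log2 change -0.27, 95% interval -0.61 to 0.070, limma adjusted p = 0.422). XTH21 and the root hair gene XTH26 read at most 3.09 and 0.821. The family median of 0.056 was the value of XTH19, and 6 of the 9 measured genes had a mean below the median of all probe sets. With values as deposited the family median was 0.13, and without the third Ag array it was -0.022.

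**Figure D3:**
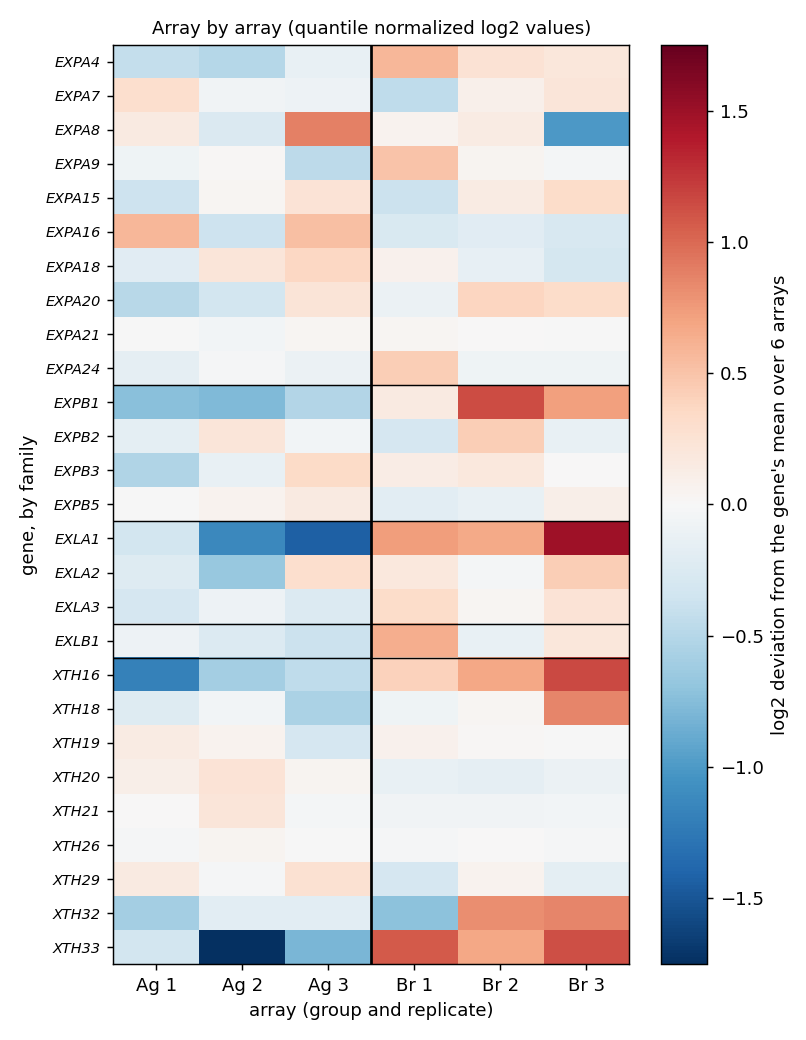
Deviation of each gene (rows, by family) from its own mean over the 6 arrays, in log2 units after quantile normalization (colour scale), on each array (columns). The 4 called genes are below their mean on all 3 Ag arrays and above it on all 3 Br arrays, and XTH32 on the first Br array is below its mean.

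Read array by array, the called genes did not share an extreme array within Ag. The lowest of the 6 values fell on the first Ag array for XTH16, on the second for EXPB1 and XTH33, and on the third for EXLA1. Within Br, the third array was the highest of the 6 for 3 of the 4 genes, and the second was the highest for EXPB1. Across all 27 members, the third Br array held the highest value for 9 genes and the first for 6. The median deviation from a gene's own mean was -0.18, -0.061 and -0.054 on the Ag arrays and 0.068, 0.054 and 0.097 on the Br arrays. Over the 23 genes not called it was -0.085, -0.042 and -0.0016 on the Ag arrays. On the Br arrays it was -0.014, 0.030 and -0.0046 over these genes, so the groups were not apart without the 4 called genes.

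The first Br array lay between the groups on the first principal component of all probe sets, at 5.57, where the Ag arrays spanned -32.8 to -24.6 and the other Br arrays read 34.5 and 42.6. The members did not share 1 position on it. In normalized log2 values, XTH33 was 2.04 above the Ag mean there and 1.86 above it on the mean of the other Br arrays. EXLA1 was 1.69 and 2.04 above, XTH16 1.14 and 1.66, and EXPB1 0.83 and 1.61. EXPA4 was higher on that array, at 0.93 above the Ag mean against 0.57. XTH32 was -0.40 relative to the Ag mean there, against 1.16. The first Br array was the lowest of the Br arrays for 10 of the 27 members and the highest for 8.

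**Figure D4:**
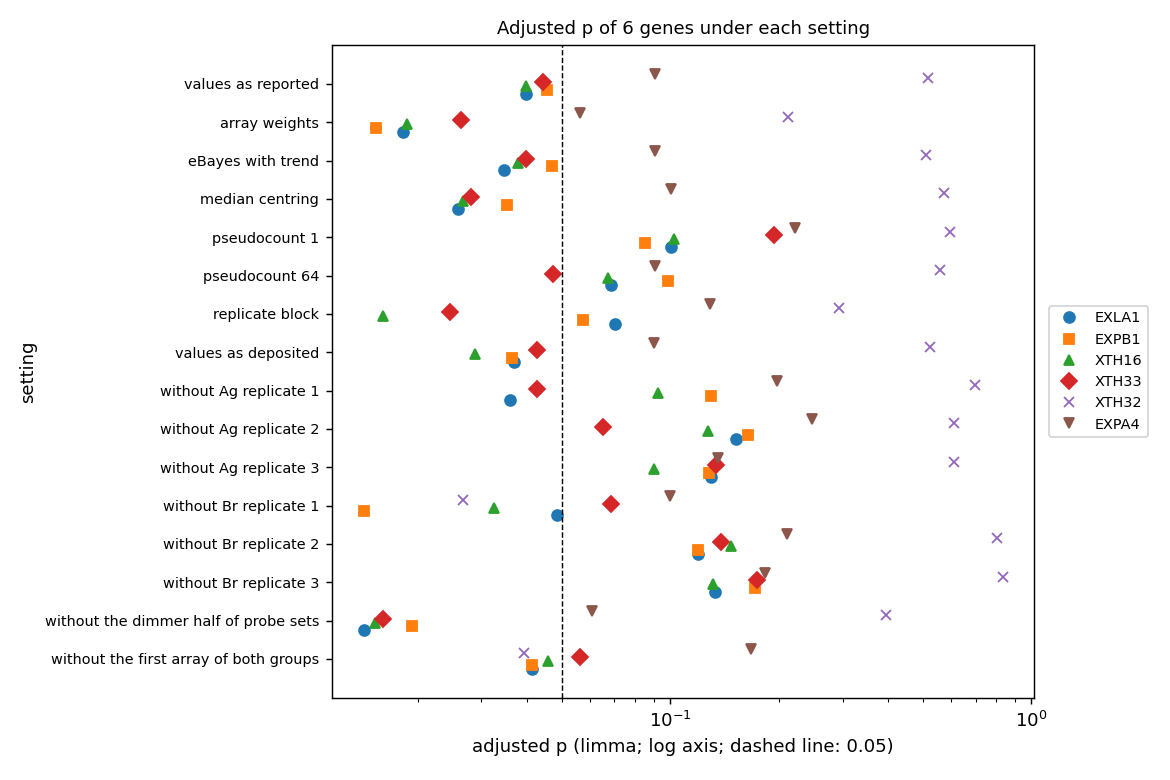
Adjusted p (x axis, log scale) of 6 genes under the reported setting and 15 alternatives (y axis); the dashed line is the threshold of 0.05. EXLA1, EXPB1, XTH16 and XTH33 lie below it as reported and cross it under several settings that drop an array, XTH32 passes only under the 2 settings without the first Br array, and EXPA4 under none.

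Other genes of wall growth were read from 5 lists of 199 symbols, of which 13 were measured, and none was called (0 by limma after adjustment, 1 before it). Over all probe sets the shares were 2.08% and 16.1%, so these counts on 13 genes say little. The xyloglucan list held 4 genes of the CSLC family, which makes the glucan backbone that XTH enzymes act on. CSLC5 read 151, 106 and 111 in Ag and 154, 189 and 167 in Br, without overlap by a narrow margin (log2 change 0.41, adjusted p = 0.255). CSLC4 read 97.1, 63.3 and 75.5 in Ag and 102, 108 and 105 in Br, also without overlap (log2 change 0.33, adjusted p = 0.325). CSLC6 and CSLC12 had log2 changes of 0.23 and 0.0070, and the median of the 4 was 0.28. The receptor kinase genes FER and THE1, which sense the state of the wall, had log2 changes of 0.23 and 0.27 (adjusted p = 0.429 and 0.547). FER did not overlap either, by a narrow margin (at most 466 in Ag, at least 470 in Br), while THE1 did. Among all probe sets, every Br array exceeded every Ag array for 12.1%.

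The remaining genes of those lists spread to both sides of 0 and overlapped between the groups, except GID1B. That gene was dim and apart by a narrow margin (3.05 to 14.4 in Ag, 14.7 to 31.9 in Br). The gibberellin receptor genes GID1A, GID1B and GID1C had log2 changes of -0.29, 0.42 and -0.13, and the auxin response repressor gene IAA29 had -0.83, with Ag arrays from 71.4 to 551 (limma adjusted p from 0.437 to 0.817 for these 4). The pectin genes PME35 and ADPG1 had log2 changes of 0.028 and -0.16. IRX10, of xylan synthesis and the 1 measured gene of the secondary wall list, had 0.015 (adjusted p = 0.979).

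Marker lists of cell types were read as well, but 9 of their 76 symbols were measured, too few to check what the samples held. Of 12 mesophyll symbols 3 were measured, RCA, LHCB4.1 and PSAE-1. Their summed intensity was 15900 to 20097 in Ag and 13721 to 14983 in Br, so on the deposited scale the groups did not overlap, while after quantile normalization their median log2 change was -0.0042. Of 23 epidermis, trichome and stomata symbols 4 were measured, FDH, SPCH, MUTE and FAMA. Their sum, 1196 to 1756 in Ag and 649 to 1554 in Br, was mostly FDH, with means of 1344 in Ag and 953 in Br. FDH was matched by symbol, and whether its probe set reads the epidermal gene was not tested. The sum is therefore not read as an epidermal signal. SPCH, MUTE and FAMA each overlapped between the groups, and their lowest adjusted p by limma was 0.365, for SPCH. Of 17 root and root hair symbols PYK10 alone was measured, from 163 to 236 in Ag and from 65.9 to 438 in Br. Of 17 meristem and flower symbols CLV3 alone was measured, at 0.899 to 16.6 in Ag and 1.37 to 4.00 in Br. None of the 9 measured markers, with FDH counted, passed (0 by limma, before adjustment as well), and 0 of 7 phloem symbols were measured. Over all probe sets 2.08% passed after adjustment and 16.1% before it, so 0 of 9 says little. The part of tissue makeup in the wall gene results was not tested.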

How the data were processed

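The authors deposited probe set intensities on a linear scale from Affymetrix ATH1 arrays; per the labels' protocols the cRNA was biotin-labelled and RNA of replicated plants was pooled. Each array had a trimmed mean of 100 (lowest and highest 2% left out). The summarising software is not given in the sources used here. The maize arrays were not used here. 64 control probe sets were removed, and 0 value columns lacked a sample. The array medians of log2(intensity + 16) ran from 5.59 to 5.74, a gap above the 0.1 set for quantile normalization, which was applied. The groups of 3 were fitted with limma 3.58.1 (R 4.3.3, lmFit, eBayes, two-sided, no covariate), with Benjamini-Hochberg adjustment over 22746 probe sets and a threshold of 0.05. The code was also run on simulated data with independent noise and changes planted in brighter probe sets alone. That run does not cover dim genes or quality measures that move with the groups. Intervals are limma's 95% intervals for single genes.

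Genes came from the GEO platform annotation, updated by gene identifier with the TAIR10.1 table; it lists 1 gene for 13513 probe sets, several for 503 and none for 8730. Members and lists were chosen with earlier results of these data known. Values by array are given for every called member, the 2 brightest and the most raised and lowered of each family with 3 or more genes, and all of smaller families; further members are given because they bear on a family or do not overlap. Plots used matplotlib 3.10.9.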

Additional observations from a re-analysis of the deposited data

How the results depend on the processing

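Over all probe sets the count called was 473. It was 889 with array weights, 148 with a pseudocount of 1, 111 at an adjusted p of 0.01, and 105 to 884 with 1 array left out. The count of members higher in Br was 4 with values as deposited, median centring, array weights, an intensity trend or only probe sets above the median, and these were the same genes each time. It was 0 with a pseudocount of 1 (7 at an unadjusted p under 0.05), 1 with a pseudocount of 64 (XTH33), 0 at an adjusted p of 0.01, and 0 to 4 with 1 array left out. By limma it was 0 when an array numbered 2 or 3 was dropped (6 to 9 at an unadjusted p under 0.05). The count of members lower in Br was 0 under every alternative run. With the replicate block, 2 members were called, XTH16 and XTH33 (adjusted p = 0.016 and 0.0245), and EXLA1 and EXPB1 missed (0.0702 and 0.0574). Same-numbered arrays correlated in their deviations by 0.316, 0.029 and 0.112, which does not establish a pairing. The filter for probe sets above the median used mean normalized log2 values and kept 12 members, against 11 by mean deposited intensity. With it, the family medians were 0.056 (EXPA, 5 genes), 0.78 (EXPB, 2 genes), 1.16 (EXLA, 2 genes) and 1.49 (XTH, 3 genes). By mean deposited intensity the EXPA median was -0.22 (4 genes). Both filters use all 6 arrays, and EXPB1, XTH16 and XTH33 passed through Br, so these medians support nothing about the families. The EXPB median was -0.032 to 0.21 with 1 array left out. The EXLA median was 0.81 with a pseudocount of 1 and 0.38 to 0.64 with 1 array left out. The XTH median was 0.13 with values as deposited and -0.022 to 0.15 with 1 array left out. EXPB3 turned to -0.0048 without the first array of both groups. Adding synonyms or shared probe sets changed no count of members. Signal over background limits the 16 dim members.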

Other observations

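The xyloglucan endotransglucosylase gene EXGT-A3 (AT2G01850), which carries the name XTH27 as a synonym and so fell outside the symbol rule, read 616, 704 and 941 in Ag and 550, 806 and 530 in Br. The groups overlapped (log2 change -0.23, 95% interval -0.74 to 0.27, limma adjusted p = 0.670). AT4G30380, with EXLB2 as a synonym, read at most 7.02 on any array (adjusted p = 0.859). A pair of probe sets each matched 2 alpha-expansin genes of the chromosome 5 group around EXPA21 and EXPA24, so their signal cannot be assigned to 1 gene. The probe set of EXP26 and EXPA22 read 2.26, 1.57 and 2.15 in Ag and 7.03, 1.83 and 0.831 in Br. The probe set of EXPA25 and EXPA23 read 0.604, 0.674 and 6.94 in Ag and 0.639, 1.60 and 0.968 in Br. Each was near the bottom of the scale with 1 array standing apart, as EXPA24 was on the first Br array (10.3 against 1.24 to 2.57 on the other 5).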
